A study of Mus musculus with 6 samples.

Results

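The genes described here encode the ciliary transition zone and the basal body, the parts that hold a primary cilium at the cell surface and decide which proteins may enter it. The 40 members were taken by name from a fixed list of gene symbols. All 40 were found among the 38896 gene symbols of the table, where they are represented by 290 of 120299 RefSeq transcripts, and all 40 had counts in every library and passed the filter on low counts. RNA had been sequenced from cultured fibroblasts of the mouse distal colon. The cells came from mice aged 6 weeks, were grown for 2 passages and then spent 24 h in conditioned medium. Libraries labelled DSS were read as cultures in the inflammatory medium, and libraries labelled control as cultures in the control medium. DSS commonly stands for dextran sulfate sodium, which induces colitis in mice. The recipe of the media and the strain and sex of the mice were not given in the sources used here. Mice 1716, 1717 and 1718 each provided a DSS and a control culture (n = 3 per group), and the 2 were compared within a mouse.

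A primary cilium grows from the mother centriole, which docks at the plasma membrane and is then called the basal body. Distal appendages, blades around the end of that centriole, make the contact with the membrane. Just above them lies the transition zone, where Y-shaped links join the microtubules to the ciliary membrane and form a gate. In humans, loss of these proteins causes nephronophthisis, Joubert syndrome, Meckel syndrome and related ciliopathies. Fibroblasts are a standard cell type for the study of primary cilia, which receive Hedgehog and other signals. The libraries address 1 question, how 24 h in inflammatory medium changed the fibroblasts' transcripts.

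The libraries held 17293680 to 17931239 estimated counts in DSS and 17734405 to 19482938 in control. Levels are given in CPM, counts set to a common library size, after scaling by TMM, a normalization that assumes most genes to be equal between libraries. They are not corrected for gene length, so they compare libraries and not genes. Fibroblast markers were abundant, with Col1a1, a chain of type I collagen, at 8605 ± 1176 CPM in DSS and 17959 ± 1955 CPM in control cultures (SD, n = 3 each). Markers of other cells were present too. The summed level of 8 macrophage markers was 1113 to 1902 CPM in DSS and 1806 to 2659 CPM in control, and that of 6 enteric glia markers was 100 to 425 CPM in DSS and 150 to 489 CPM in control. For 6 smooth muscle markers the sum was 1159 to 1321 CPM in DSS and 1482 to 1525 CPM in control. Sums of epithelial markers (9.11 to 10.7 CPM in DSS, 15.7 to 20.8 CPM in control), endothelial markers (12.7 to 17 CPM in DSS, 15.7 to 22.2 CPM in control) and mesothelial markers (3.02 to 4.85 CPM in DSS, 4.1 to 7.29 CPM in control) were low. Of the 9 epithelial markers, Epcam, Krt8, Krt18, Krt20 and Vil1 stayed under 1 CPM in every library, and no marker of these lists was at 0 throughout. Of the markers tested, 5 of 8 for macrophages, 3 of 6 for glia, 3 of 6 for smooth muscle, 2 of 4 for epithelium, 2 of 6 for endothelium and 1 of 3 for mesothelium were lower in DSS, while 1 for macrophages and 2 for smooth muscle were higher. Without the mouse as a block in the fit, the markers called lower numbered 2 for macrophages, 0 for glia, 1 for smooth muscle, 2 for epithelium, 0 for endothelium and 1 for mesothelium. Of 10 fibroblast markers 7 were lower and 2 higher (5 and 1 without the block). The part of these cells in the results below was not tested.

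Of the 40 transition zone and basal body genes, 7 were called changed in inflammatory medium and 33 were not. Ofd1, Fbf1 and Alms1 were higher in DSS (3 members) and Anks6, Cep89, Cep162 and Tmem17 lower (4 members), at an adjusted p under 0.05 in edgeR's quasi-likelihood fit with mouse as a block. That is 17.5% of the members, and 25.0% of the 19869 genes tested were called in the same fit (12.3% higher and 12.7% lower). Without the block 3 members were called, namely Ofd1, Fbf1 and Anks6, against 13.3% of all genes. Lower calls numbered 0 without mouse 1717 and 1 without mouse 1718. The RNA is that of whole cultures, in which fewer ciliated cells and less RNA per cell cannot be told apart.

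The changes were also small. The members' median log2 fold change, DSS over control, was -0.07, against 0.01 over all genes tested, and the fitted changes ran from -1.31 to 0.46. The fitted change was within 1.5-fold for 39 of the 40 members and for 85% of all genes tested. The whole 95% interval lay within 1.5-fold for 31 of the 40, against 54.7% of all genes. For these 31 a larger change than 1.5-fold would therefore have lain outside the interval. For the other 9 the interval reached past 1.5-fold, so that some larger changes lay inside it. The summed level of the 40 members was 887, 840 and 893 CPM in the DSS cultures of mice 1716, 1717 and 1718, against 900, 851 and 859 CPM in the control cultures of the same mice. The group sums overlapped, and the DSS sum lay below its own control in mice 1716 and 1717 and above it in mouse 1718. Within mice, 9 members were higher in DSS in all 3 animals, 14 were lower in all 3 and 17 were mixed. Among all 19869 genes tested, 5651 were higher in all 3, 5663 were lower in all 3 and 8555 were mixed. The levels of 14 members did not overlap between the groups, 6 above and 8 below control, where 34.2% of all genes did not overlap.

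**Figure D1:**
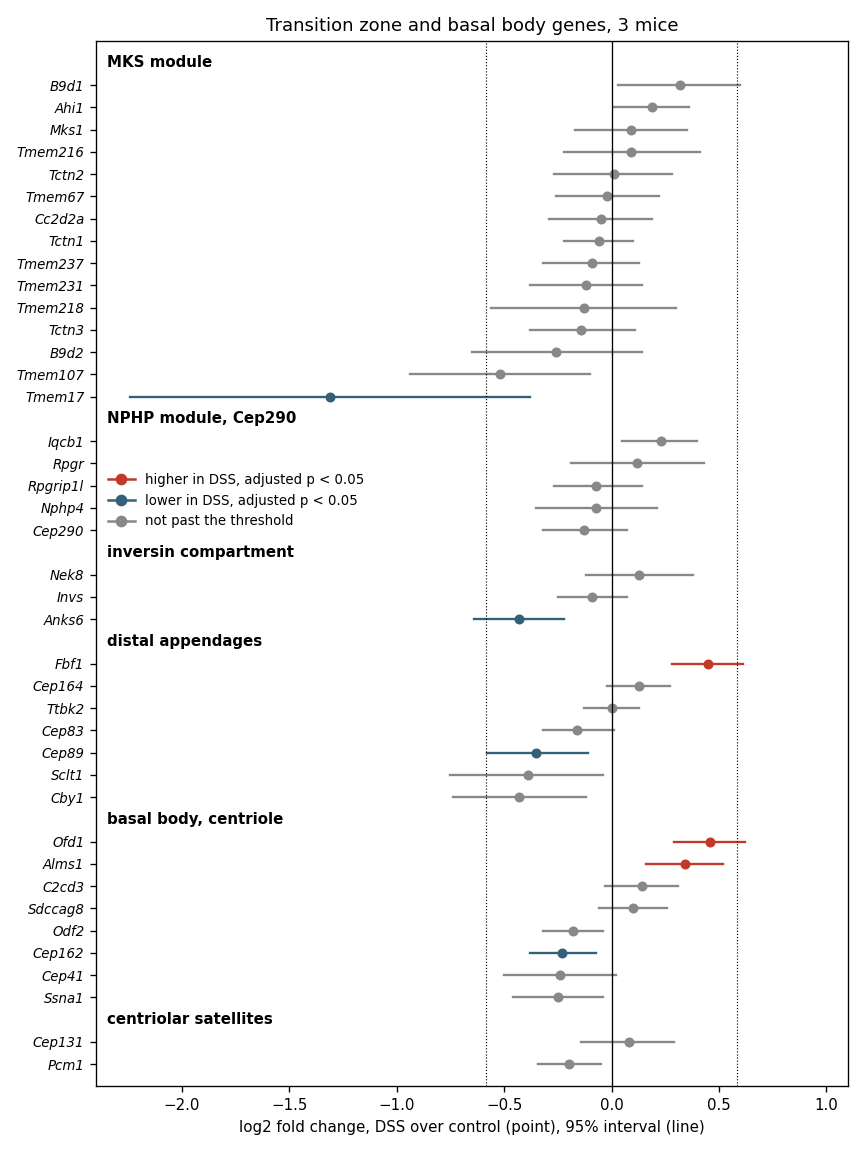
Log2 fold change of each of the 40 members, DSS over control, with its 95% interval from edgeR's quasi-likelihood fit with the mouse as a block (3 mice), grouped by role. Dotted lines mark 1.5-fold. Points of 39 members lie between the dotted lines, and Tmem17, at -1.31, lies outside.

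Many ciliary genes are controlled by RFX transcription factors, which bind a paired element called the X-box, and the members' promoters were searched for it because this feature played no part in the choice of members. RefSeq promoter windows (GRCm38.p6), which run from 250 bases before to 50 bases after a gene's start, were found for 35 members, with 48 windows in all. The spelling GTNNCCNNNGNAAC was searched on both strands, and it was chosen with matches of other spellings known. It was present in 10 of the 48 windows (20.8%), 1 in each of 10 members, and in 2.17% of all 32851 windows and 2.24% of the 21263 windows of protein-coding genes. The stricter spelling GTTGCCNNGGNAAC, whose matches are among those of the wider one, was in 3 member windows (6.25%) and in 0.298% of all windows. The half-site GTTGCC, contained in the strict spelling, was in 15 member windows (31.2%) and in 12.5% of all windows. In Cep83, Tctn2, Tmem216, Tmem231 and Tmem237 the spelling is met only on the strand opposite to the gene, so their printed capitals show its reverse complement. The 10 matches are printed from 5′ to 3′ on the gene's own strand, because they are what these members share in sequence, with the match in capitals and up to 8 bases on either side.
Ahi1: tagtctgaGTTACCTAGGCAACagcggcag
B9d2: aacctgctGTTGCCCCAGCAACagtcgggg
Cep83: ccctccgaGTTTCCCGGGCTACctcaacct
Mks1: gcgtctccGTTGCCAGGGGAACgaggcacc
Nphp4: cggtgcccGTCTCCTAGGTAACgcgccagc
Tctn1: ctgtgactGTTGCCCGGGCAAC
Tctn2: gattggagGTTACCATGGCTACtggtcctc
Tmem216: tgtacgcaGTTTCCATGGGGACtgaacatg
Tmem231: cgccgtcgGTTGCCGTGGAGACtcggcgct
Tmem237: tagtcagcGTTGCCATGGCGACgcctccgg

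The strict spelling was met in Ahi1 (on the strand opposite to the gene only), Mks1 and Tctn1. The printed windows are chr10:20952560-20952589 (plus strand) for Ahi1, chr11:87853183-87853212 (plus) for Mks1 and chr5:122264411-122264432 (minus) for Tctn1. On the gene's strand the match began 14 bases before the annotated start in Cep83, 24 bases before it in Mks1, 27 in Tmem237, 62 in Tctn2 and 231 in Nphp4. In Ahi1, B9d2, Tctn1, Tmem216 and Tmem231 it began 11 to 36 bases past the start. The 10 genes with a match had log2 fold changes of -0.26 to 0.19 with a median of -0.07, and 0 of them passed edgeR's test, while 1 (Ahi1) had an unadjusted p under 0.05. The 25 members with a window and no match also had a median of -0.07, from -1.31 to 0.46, and 6 of them passed, a share near the 25.0% called among all genes tested. The difference between these sets was not tested. A match is a description of letters and says nothing of binding. Among the factors themselves, Rfx1, Rfx2, Rfx3 and Rfx5 did not pass. Rfx3, which is needed for cilia in mice, was at 14.8 ± 2.18 CPM in DSS and 16 ± 2.16 CPM in control. Rfx7 was higher, at 70.3 ± 0.212 CPM in DSS and 61.7 ± 1.78 CPM in control (edgeR adjusted p = 0.0444), a call lost without the block (0.0768), with DESeq2 (0.307), with the relative log expression factors (0.0564), with no filter on low counts (0.0769) and without mouse 1717 (0.17) or mouse 1718 (0.254).

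The MKS module of the transition zone was the largest role group. It holds the B9-domain proteins B9d1, B9d2 and Mks1, the coiled-coil protein Cc2d2a, the tectonins Tctn1 to Tctn3, 7 transmembrane proteins and Ahi1. Of its 15 members 1 was lower in DSS and 14 did not pass (median -0.06). Tmem17, a membrane protein of the gate, was at 0.228, 0.511 and 0.74 CPM in the DSS cultures of mice 1716, 1717 and 1718, against 1.32, 1.37 and 0.975 CPM in the control cultures of the same mice. The groups did not overlap, but the levels rest on few reads, with 4, 9 and 13 estimated counts in DSS against 26, 25 and 17 in control. The within-mouse log2 differences were -2.53, -1.42 and -0.40. Tmem17 (chromosome 11, 22512283 to 22519231, GRCm38) fell by 1.31 ± 0.39 on the log2 scale (SE; edgeR adjusted p = 0.0489). The call was lost without the block (0.0626), with limma-voom (0.054), with no filter on low counts (0.0538), without mouse 1716 (0.156) and without mouse 1717 (0.125).

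The other 14 members of the module did not pass. Tmem107, a membrane protein that helps to anchor the module, was at 1.83, 2.16 and 1.42 CPM in DSS and 2.89, 2.79 and 2.06 CPM in control, in the order of the mice. Each mouse had less in its DSS culture, the groups overlapped, and the change of -0.52 ± 0.18 did not pass (edgeR adjusted p = 0.0762). B9d1 was at 6.74 ± 0.946 CPM in DSS and 5.42 ± 1.14 CPM in control (log2 fold change 0.32 ± 0.12) and Ahi1 at 25.9 ± 1.51 CPM in DSS and 22.7 ± 1.08 CPM in control, and neither passed (edgeR adjusted p = 0.105 and 0.122). The remaining 11 members, Mks1, B9d2, Cc2d2a, Tctn1, Tctn2, Tctn3, Tmem67, Tmem216, Tmem218, Tmem231 and Tmem237, had log2 fold changes of -0.26 (B9d2) to 0.09 (Mks1 and Tmem216). Cc2d2a, which human genetics links to Joubert and Meckel syndromes, was at 34.5 ± 4.97 CPM in DSS and 35.5 ± 2.2 CPM in control. Tmem67, or meckelin, was at 11.5 ± 1.43 CPM in DSS and 11.6 ± 0.159 CPM in control.

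The module that pairs with it contains nephrocystins and the large scaffold Cep290, which links microtubules to the membrane. None of its 5 members passed edgeR's test (0 called, 1 with an unadjusted p under 0.05, median -0.07). That 1 was Iqcb1, also named nephrocystin 5, a partner of Cep290. It was at 21.9, 19.8 and 21.1 CPM in the DSS cultures of mice 1716, 1717 and 1718, against 18.9, 17.9 and 16.9 CPM in the control cultures. All 3 DSS cultures lay above all 3 control cultures, with a log2 fold change of 0.23 ± 0.07 (edgeR adjusted p = 0.0642). Cep290 was at 17.4 ± 1.15 CPM in DSS and 19.1 ± 2.55 CPM in control, a change of -0.13 with a 95% interval of -0.32 to 0.07. Rpgrip1l, the scaffold of the nephrocystins, changed by -0.07 and Nphp4 by -0.07, and Rpgr, which is mutated in X-linked retinal degeneration in humans, by 0.12. The DESeq2 fit called 0 of these 5 as well.

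Above the gate lies the inversin compartment, where inversin (Invs), the kinase Nek8 and its activator Anks6 assemble. Of these 3 genes Anks6 was lower in DSS. Its level was 9.64, 9.93 and 10.9 CPM in the DSS cultures of mice 1716, 1717 and 1718, against 12.1, 14.1 and 14.9 CPM in the control cultures. Every DSS culture lay below every control culture. Anks6 (chromosome 4, 47015365 to 47057327) fell by 0.43 ± 0.09 on the log2 scale (edgeR adjusted p = 0.012). The call held without the block (0.0468) and was lost without mouse 1717 (0.0581), without mouse 1718 (0.0705) and with DESeq2 (0.0806). Nek8 was at 11.5 ± 0.856 CPM in DSS and 10.5 ± 0.755 CPM in control, and Invs at 27.3 ± 3.65 CPM in DSS and 29.1 ± 2.27 CPM in control, and neither passed (edgeR adjusted p = 0.43 and 0.369).

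Among the 7 genes of the distal appendages, Fbf1 was higher in DSS, Cep89 was lower, and 5 did not pass (median -0.16). Fbf1 sits between the appendage blades and gates entry at the ciliary base. It was at 82.3, 89.9 and 86.8 CPM in the DSS cultures of mice 1716, 1717 and 1718, against 68, 61 and 60.9 CPM in the control cultures. The groups did not overlap. Fbf1 (chromosome 11, 116142285 to 116168271) rose by 0.45 ± 0.07 on the log2 scale, or 1.36-fold (edgeR adjusted p = 0.00379), and it passed under each of the 9 other settings (0.000645 to 0.0318).

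Cep89, a component of the appendages, was at 12.2, 9.48 and 12.1 CPM in DSS, against 15.2, 13.9 and 13.7 CPM in control, in the order of the mice. All 3 DSS cultures lay below the controls, most clearly in mouse 1717 (log2 difference -0.55). Cep89 fell by 0.35 ± 0.10 on the log2 scale (edgeR adjusted p = 0.0414), a call lost without the block (0.113), with DESeq2 (0.196) and without mouse 1716 (0.0737), mouse 1717 (0.183) or mouse 1718 (0.0634). Cby1, which binds Cep164 and helps vesicles to dock, was at 5.88, 5.17 and 4.89 CPM in DSS, against 6.89, 6.69 and 7.97 CPM in control. The groups did not overlap, but the change of -0.43 ± 0.13 fell just short of the threshold (edgeR adjusted p = 0.0527). It passed with the relative log expression factors (0.0471), with no filter on low counts (0.0498) and without mouse 1716 (0.0419).

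None of the other 4 appendage genes passed edgeR's test, and 1 of them (Sclt1) had an unadjusted p under 0.05. Ttbk2, the kinase that is recruited by Cep164 to begin assembly, was at 62.8 ± 3.53 CPM in DSS and 62.8 ± 1.71 CPM in control, with a 95% interval of -0.13 to 0.13 on the log2 scale. Cep164 itself was at 55.7 ± 3.71 CPM in DSS and 51 ± 1.58 CPM in control (log2 fold change 0.13 ± 0.06). Cep83, the innermost appendage protein, was at 17.8 ± 1.6 CPM in DSS and 19.8 ± 1.52 CPM in control (-0.16 ± 0.07). Sclt1, which Cep83 recruits, was at 6.2 ± 1.44 CPM in DSS and 8.11 ± 0.132 CPM in control, with no overlap and a change of -0.39 ± 0.15 (edgeR adjusted p = 0.101).

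**Figure D2:**
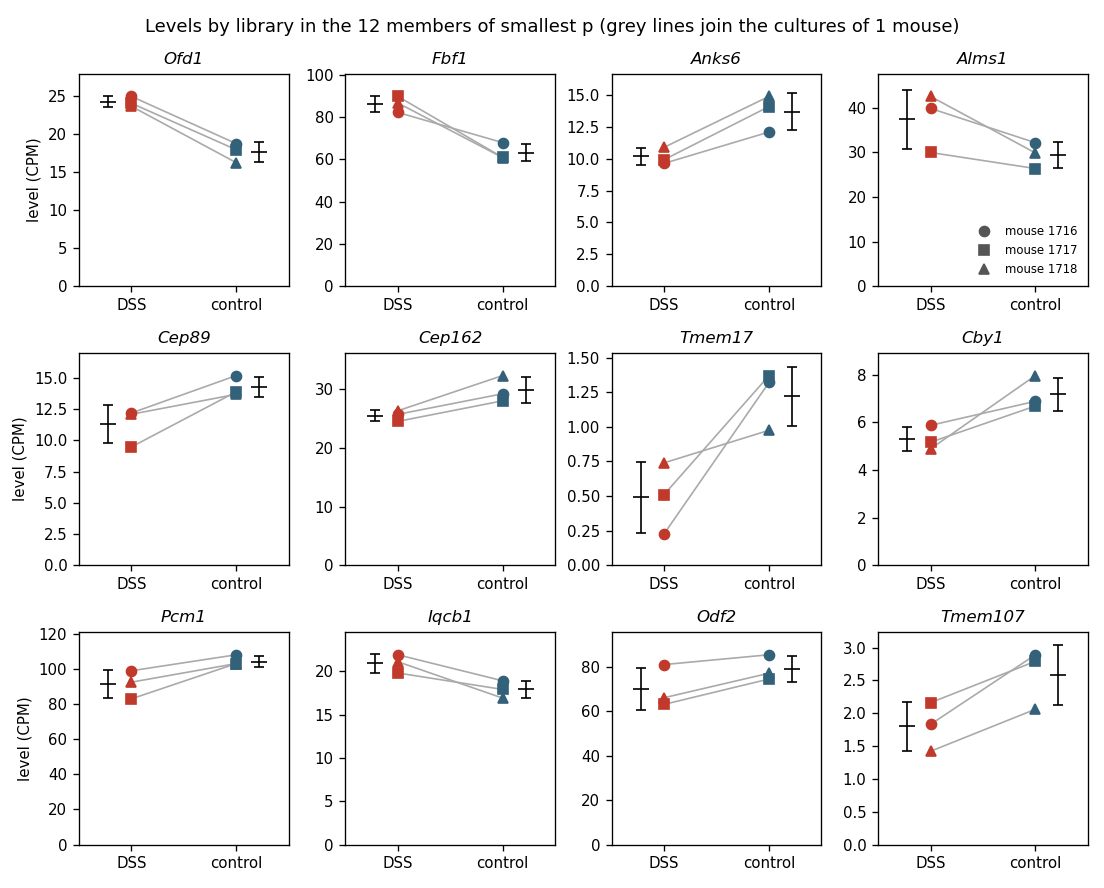
Level in CPM of the 12 members with the smallest p, in 3 DSS and 3 control cultures, each mouse with its own symbol and a grey line joining its pair. The bars beside the points are mean ± SD. The DSS points of Ofd1, Fbf1 and Iqcb1 lie above all control points, and those of Anks6, Cep89, Cep162, Tmem17, Cby1 and Pcm1 below.

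Of the 8 genes of the centriole and basal body, Ofd1 and Alms1 were higher in DSS, Cep162 was lower and 5 did not pass (median -0.04). Ofd1 limits the length of the centriole and is needed for its distal appendages. It was at 24.9, 24 and 23.6 CPM in the DSS cultures of mice 1716, 1717 and 1718, against 18.7, 17.9 and 16.2 CPM in the control cultures. The groups did not overlap, and the difference was alike in the 3 animals (0.41, 0.42 and 0.54 on the log2 scale). Ofd1 (chromosome X, 166386573 to 166440704) rose by 0.46 ± 0.07 on the log2 scale, or 1.37-fold (edgeR adjusted p = 0.00355), and passed under each of the 9 other settings (0.00352 to 0.0382). Its exons overlap those of Trappc2 on the opposite strand in GENCODE M21 (GRCm38), and the strand setting of the counting was not given in the sources used here. Trappc2 was at 7.65, 8.06 and 8.37 CPM in DSS and 7.85, 7.78 and 7.57 CPM in control, a change of 0.05 ± 0.10.

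Alms1, a large centrosomal protein that is mutated in Alström syndrome in humans, was at 39.9, 30 and 42.6 CPM in the DSS cultures of mice 1716, 1717 and 1718, against 32.2, 26.4 and 29.9 CPM in the control cultures. The groups overlapped, since mouse 1717 had the lowest level of each group, but every mouse had more in its DSS culture. Alms1 rose by 0.34 ± 0.08 on the log2 scale (edgeR adjusted p = 0.017), a call lost without the block (0.155), with DESeq2 (0.0764) and without mouse 1718 (0.147). Its pseudogene Alms1-ps2 held at most 4 estimated counts in a library. Cep162, which helps to set the transition zone on the axoneme, was at 25.7, 24.5 and 26.3 CPM in DSS, against 29.2, 28 and 32.3 CPM in control. The groups did not overlap, and Cep162 fell by 0.23 ± 0.06 on the log2 scale (edgeR adjusted p = 0.0419). That call was lost without the block (0.113), with DESeq2 (0.279), with no filter on low counts (0.0641) and without mouse 1716 (0.0526), mouse 1717 (0.101) or mouse 1718 (0.232).

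Odf2, a protein of the subdistal appendages, was at 80.9, 63 and 66 CPM in DSS and 85.3, 74.4 and 77 CPM in control. Each mouse had less in its DSS culture, the groups overlapped, and the change of -0.18 ± 0.06 missed the threshold (edgeR adjusted p = 0.0682) and met it without mouse 1716 (0.0342). C2cd3, which promotes the lengthening of centrioles, was at 33.9 ± 2.99 CPM in DSS and 30.7 ± 0.29 CPM in control. Sdccag8 was at 29.2 ± 1.15 CPM in DSS and 27.2 ± 1.04 CPM in control. Cep41, needed for the glutamylation of ciliary tubulin, was at 5.99 ± 1.03 CPM in DSS and 7.07 ± 1.19 CPM in control, and Ssna1 at 12.8 ± 0.498 CPM in DSS and 15.2 ± 1.32 CPM in control. None of these passed (edgeR adjusted p = 0.0888 to 0.344). Exons of C2cd3 overlap those of Ppme1 on the opposite strand.

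Centriolar satellites are granules that carry proteins to the base of the cilium. Their scaffold Pcm1 was at 98.9, 82.9 and 92.4 CPM in the DSS cultures of mice 1716, 1717 and 1718, against 108, 103 and 103 CPM in the control cultures. The groups did not overlap, and the change of -0.20 ± 0.06 missed the threshold (edgeR adjusted p = 0.0537). It passed with limma-voom (0.0439), with the relative log expression factors (0.0452) and without mouse 1716 (0.045). Cep131, which Pcm1 holds at the satellites, was at 13.5 ± 1.15 CPM in DSS and 12.8 ± 0.692 CPM in control (log2 fold change 0.08 ± 0.09).

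The table is given per transcript, so the make-up of each gene could be followed. Of the 290 transcripts of the members, 159 passed the filter on low counts, and they came from all 40 genes. In edgeR's fit over 48402 transcripts with the mouse as a block 0 of the 159 passed, and 10 had an unadjusted p under 0.05 (smallest adjusted p 0.231). In that fit 0% of all transcripts were called and 5952 had an unadjusted p under 0.05, while without the block 337 transcripts (0.696%) were called, again 0 of them from the members. The common dispersion was 0.434 for transcripts against 0.00649 for genes, so that single transcripts were measured far less precisely than their sums.

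Ofd1 had 2 transcripts. The predicted XM_006528839.4 took 70.6, 68.4 and 70.5% of the gene in DSS and 69, 66.5 and 49.4% in control, with NM_177429.3 as the rest, so only the control culture of mouse 1718 stood apart. Of the 19 transcripts of Fbf1, 3 took at least 10% on average. XM_011248949.2, the highest of them on average, took 30.1, 25.2 and 30.9% in DSS against 17.4, 18.6 and 33.6% in control. XM_011248950.1 took 22.6, 21.6 and 22% in DSS against 25.2, 20.6 and 20% in control, and so exceeded it in the control cultures of mice 1716 and 1717. The other was NM_001364079.1 (11% on average). In Iqcb1 the transcript XM_030249154.1 took 41, 15.8 and 9.07% in the control cultures and at most 0.739% in any DSS culture. XM_006522250.4 took 47.4, 43.1 and 43.4% in DSS against 0.826, 27.8 and 34.2% in control, while XM_030249153.1 took 29.7 to 39.8% throughout. The estimates for XM_030249154.1 did not pass in the transcript fit (edgeR adjusted p = 0.303).

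In Cep89 the transcript with the highest average share was XR_003946568.1, a predicted non-coding RNA, with 30.3, 60.7 and 36.4% of the gene in DSS and 50.9, 54.2 and 55.7% in control. NR_153799.1 took 41.3, 14.9 and 37.3% in DSS and 31.3, 24.6 and 35.6% in control, and so exceeded it in the DSS cultures of mice 1716 and 1718. XM_030243008.1 took 17.2% on average. For Pcm1 NM_023662.3 took 60.1, 58.9 and 52.4% in DSS and 63.4, 64 and 62.1% in control, followed by XM_011242179.2. Cep162 was led by XM_030244438.1 (62.9% on average), then XM_006511263.3 and XM_006511264.1. Within Alms1 (NM_145223.2, XM_006506050.3, XM_006506053.4) and Anks6 (XM_006538333.3, XM_006538334.3, NM_001024136.2) the shares of a single transcript swung widely between mice of 1 group, for example from 9.89 to 60.6% for XM_006538333.3 in DSS. The same held in Odf2, which had 38 transcripts, the most of any member, of which XR_003951354.1, NM_001374181.1, XR_003951348.1 and NM_001113213.1 took over 10%. Tmem17 (NM_153596.3), Cby1 (NM_028634.3) and Tmem107 (NM_025838.2) were each read from 1 transcript at 85.9% or more of the gene.

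**Figure D3:**
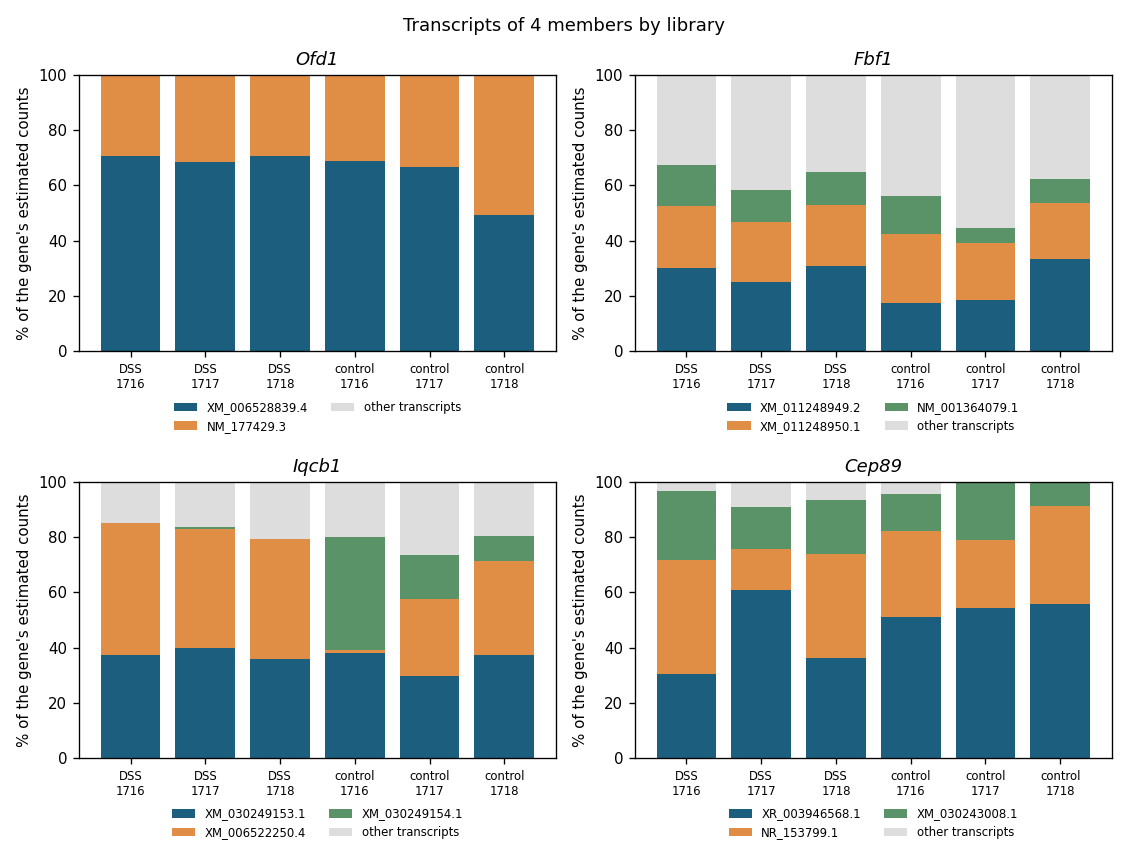
Share of a gene's estimated counts, in percent, taken by each transcript with at least 10% on average, in the 3 DSS and 3 control cultures, for Ofd1, Fbf1, Iqcb1 and Cep89. In Iqcb1 the share of XM_030249154.1 is at most 0.739% in DSS and 9.07 to 41% in control.

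The rest of the cilium's parts list was counted in the same fit. Of 18 other transition zone and ciliogenesis genes 2 were lower in DSS and 0 higher. Of 29 genes of intraflagellar transport, the traffic along the cilium, 2 were lower and 1 higher. Ift20, the subunit that also works at the Golgi, was at 15.3 ± 0.974 CPM in DSS and 22.1 ± 2.28 CPM in control (-0.53 ± 0.07, edgeR adjusted p = 0.00222). The calls of Kif3b (lower) and Tulp3 (higher) were lost with DESeq2 (adjusted p = 0.0712 and 0.0761). Both were also lost without mouse 1718 (edgeR adjusted p = 0.0863 and 0.0675), and that of Tulp3 without mouse 1717 (0.0931). Of 13 genes of the BBSome and its partners 1 was higher and 2 were lower, and all 3 calls were lost without mouse 1718 (edgeR adjusted p = 0.0853 to 0.103) and with DESeq2 (adjusted p = 0.053 to 0.0821). Bbs1 also lost its call without the block (0.0821) and Ttc8 without mouse 1717 (0.0681).

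Of 34 other centriole and basal body genes 8 were lower and 2 higher (3 and 1 without the block). In all 29.4% were called, against 25.0% of all genes tested, but the directions differed. Lower calls made up 23.5% of the list against 12.7% of all genes, and higher calls 5.88% against 12.3%. Those with the smallest p were Plk4, the kinase that starts centriole duplication, Stil, its partner, Ninl and Haus6. Plk4 was at 16.6 ± 5.48 CPM in DSS and 28.6 ± 4.98 CPM in control (-0.81 ± 0.10, edgeR adjusted p = 0.00139, and 0.0642 without the block) and Stil at 13 ± 4.34 CPM in DSS and 20.4 ± 5.33 CPM in control (0.00147, and 0.145 without the block). Ninl, a centrosomal protein that nucleates microtubules, was at 30.8 ± 5.04 CPM in DSS and 18.6 ± 2.78 CPM in control (0.72 ± 0.10, edgeR adjusted p = 0.00222). Centriole duplication is tied to the cell cycle, and genes of division moved in these libraries. All 20 genes of the G2 and M phases were lower in DSS (median -0.89, and 6 of 20 called without the block), as were 14 of 20 genes of S phase (median -0.46, and 0 called without the block). The summed level of the G2 and M genes was 1014, 546 and 510 CPM in the DSS cultures of mice 1716, 1717 and 1718, against 1471, 1156 and 907 CPM in control. The sum was lower in the DSS culture of each mouse, and the groups overlapped. The part of division in the results for the members was not tested.

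Genes of motile cilia, such as those of multiciliated cells, were mostly at low levels. Of 16 such genes 11 stayed under 1 CPM in every library, among them the master regulator Foxj1 (0.455 ± 0.0977 CPM in DSS, 0.347 ± 0.104 CPM in control), and Spag6l was at 0. The highest levels were those of Dnai2 (5.25 ± 1.26 CPM in DSS, 3.88 ± 0.653 CPM in control), Ccdc39 (3.57 ± 0.716 CPM in DSS, 4.53 ± 0.454 CPM in control) and Rsph9 (3.28 ± 0.427 CPM in DSS, 3.18 ± 0.449 CPM in control). Of the 7 that could be tested 0 passed edgeR's test, and 0 had an unadjusted p under 0.05.

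**Figure D4:**
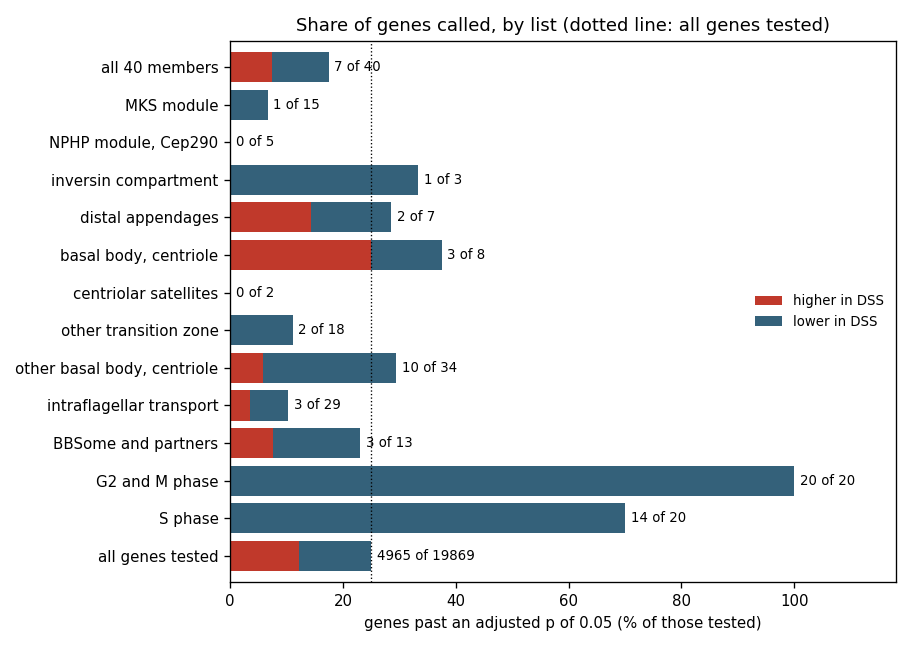
Share of tested genes, in percent, called higher or lower in DSS by edgeR with the mouse as a block, for the members, their role groups, other cilium lists, cell division lists and all genes tested. The members stand at 17.5%, all genes at 25.0% (dotted line) and the G2 and M list at 100%.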

How the data were processed

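The authors deposited unscaled estimated counts, 1 value per RefSeq transcript and library, for 6 ribosomal-RNA-depleted libraries made with a directional kit, per the labels' protocols. Per the submitters' processing notes kallisto was used, and GRCm38 and mm10 are named as builds. Version, strand setting and filters were not given in the sources used here. Of values above 0, 84.5 to 84.8% were not whole at a tolerance of 1e-06.

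Estimated counts were summed per symbol and rounded. The filter was filterByExpr of edgeR, with a minimum count of 10 and a minimum total of 15. Libraries were scaled by TMM, and genes were tested with edgeR's quasi-likelihood test with mouse and group as terms, with Benjamini-Hochberg adjustment over 19869 genes at 0.05. The SE is the log2 fold change divided by the square root of F, and 95% intervals use the fit's degrees of freedom. Transcripts were tested alike. Python 3.11.15, DESeq2 1.42.0, limma 3.58.1, edgeR 4.0.16 and R 4.3.3 were used. The gene and transcript tests were run on simulated counts with known changes. The simulated transcripts had a lower dispersion than the 0.434 fitted here. That run therefore does not show how the transcript test performs on these data.

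The labels give the same mouse numbers to both groups. Deviations from the group means correlated with r = 0.43, 0.27 and 0.55 across genes for libraries of the same mouse, and -0.44 to 0.01 for different mice. These r run over genes, which are no independent replicates. Deviations from a group mean cancel out within the group. Positive r for the same mouse therefore force the r for different mice to be negative on average, so the latter are no separate evidence. The mice are separate animals, but each group is 1 culture per mouse. Within a group no library was a copy of another (chi-square per degree of freedom 9.62 to 21.9). Pairs of libraries across the groups were not compared in this way. The members and lists were chosen with earlier results of these data known. Values in every library are given for the 12 members of smallest p, and for the other cilium lists genes of smallest p are named, some of which are not reported here. Sequences are RefSeq promoters of build GRCm38.p6. Alternatives were no replicate block, DESeq2, limma-voom, relative log expression factors, removal of ribosomal RNA entries, no filter on low counts and leaving out each mouse.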

Additional observations from a re-analysis of the deposited data

How the results depend on the processing

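Over 9 alternatives the 12 members named in full kept their direction throughout. Of 107 values with an adjusted p, 78 stayed on the same side of the threshold, 22 lost a call and 7 gained one. DESeq2 gave no adjusted p for Tmem17. Of the 7 called members, Ofd1 and Fbf1 kept their calls under all 9 alternatives. The count of members lower in DSS was 4. It was 1 without the replicate block, 0 with DESeq2 and 6 with the relative log expression factors. With a mouse left out it was 0 to 5 (0 without mouse 1717). The count higher was 3, with 2 without the replicate block, 2 with DESeq2 and 2 to 3 when a mouse was left out. The members' median log2 fold change of -0.07 was -0.02 without mouse 1716, and lay between -0.11 and -0.02 over the 3 mice left out. Over the other cilium lists 5 genes were higher and 14 lower. Without the replicate block the counts were 3 and 7, with DESeq2 2 and 9, and with a mouse left out 2 to 6 and 10 to 15. The cause of these shifts was not tested, but a fit without a mouse has 4 libraries, and the fit without the block had a common dispersion of 0.0196 in place of 0.00649. Member transcripts called numbered 0 under each alternative run for them, in a fit that called 0 transcripts at all with the block. The median log2 fold change of all genes was at most 0.02 under every setting. Each scaling assumes most genes to be equal between libraries, so this value cannot show whether all genes shifted together. Depth limited Tmem17, with 4 to 26 estimated counts per library.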
